A study of Mus musculus with 9 samples.

Results

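Livers of ethanol-fed mice were compared with livers of pair-fed mice, across all genes listed for these samples. The comparison holds 6 of the 9 liver libraries of the study, 3 per group, which were chosen by their titles and by the matching column names of the deposited table. All 6 mice were wild-type and, per the series' design text, had received through the tail vein an adeno-associated virus of serotype AAV8 that carries an MCS-3×FLAG insert, without a gene to express, behind the TBG promoter. TBG is a hepatocyte promoter, so the control virus is directed at hepatocytes in both groups, and no liver without virus is part of the comparison. Diets began 3 weeks after the virus and lasted 10 days. The pair-fed mice took a control diet and then a single binge of maltose, and the ethanol-fed mice took a diet with ethanol and then a single binge of ethanol, so that chronic feeding and binge cannot be told apart here. The titles of the 6 samples name the genotype and the feeding but no virus, and the column names give it as control. The labels name neither sex, age, hours between binge and collection nor fasting state, and they do not say whether each library is 1 animal. If the libraries of a group were not from separate animals, p-values measure only the spread between these samples. The 3 remaining libraries, from ethanol-fed mice with a Mettl3 virus, enter no value below except in 1 alternative fit.

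Ethanol is oxidised mainly in hepatocytes, by alcohol dehydrogenases in the cytosol, by the microsomal cytochrome P450 Cyp2e1 and, to a lesser degree, by catalase, and the acetaldehyde formed is oxidised to acetate by aldehyde dehydrogenases. Ethanol oxidation lowers the hepatocyte's ratio of NAD+ to NADH, and chronic intake is known for fat accumulation, oxidative stress and stress of the endoplasmic reticulum (ER). A binge on top of chronic feeding is used as a model of early alcoholic liver injury with inflammation and neutrophil entry. Hepatocytes answer interleukin 6 and interleukin 1 with the acute phase response, in which they switch their secretory output toward proteins such as serum amyloid A, haptoglobin and fibrinogen.

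Levels are given as FPKM, fragments scaled to gene length and to the total reads of the library, a scale on which levels of different genes can be compared. Where 3 values stand in a row, they belong to livers 1, 2 and 3 of a group in that order. A log2 difference is the ethanol-fed minus the pair-fed mean of log2(FPKM + 1), which understates changes of low genes, and SE is its standard error. A gene was called when its adjusted p, from limma with Benjamini-Hochberg adjustment over all genes tested, was below 0.05. Where a gene is said to have lost its call, the library named is the one whose omission gave the highest adjusted p. Of 16842 genes listed, 10064 had at least 1 FPKM in at least 3 of the 6 libraries and were tested.

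Ethanol feeding went with a broad change: 3625 of the 10064 genes tested (36%) were called, 1009 higher (10%) and 2616 lower (26%). A difference of 2-fold or more was called for 248 higher genes (2.46%) and 386 lower genes (3.84%). Counted without a test, the groups did not overlap, with the ethanol-fed values on top for 15.4% of genes and at the bottom for 37.2%. The median log2 difference over all genes was -0.14, and it was 0.01 after the libraries were scaled by median-ratio size factors, which set the typical gene to no change. With that scaling 1796 of 10032 genes were called higher (17.9%) and 1663 lower (16.6%), so the share of calls that were lower went from 72.17% to 48.08%. Of the 1009 genes called higher 1008 were called higher under both scalings, and 1663 of the 2616 lower genes were lower under both, with none called in opposite directions. Counts of list members below are to be read beside the shares of all genes. These were 10% higher and 26% lower, and 17.9% and 16.6% under median-ratio scaling. The shares also depended on level. Of genes with a mean of 0 to 2 FPKM 21.63% were called lower, of those at 10 to 100 FPKM 31.13% and at 100 to 1000 FPKM 47.36%. Above 1000 FPKM 19.23% of 52 genes were lower and 32.69% higher. For lists of abundant genes the shares of all genes are therefore an uneven background. The plot of level against difference shows the spread of both groups of calls over the whole range of levels.

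**Figure D1:**
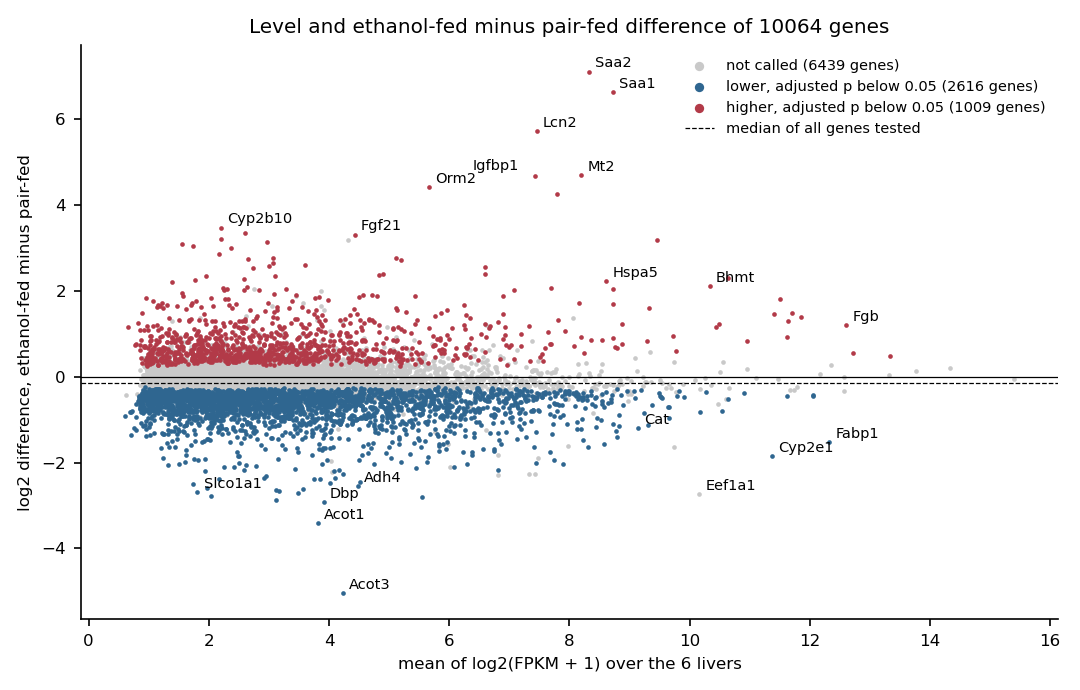
Each point is 1 of the 10064 genes tested, with its mean log2(FPKM + 1) over the 6 livers on the horizontal axis and the ethanol-fed minus pair-fed log2 difference on the vertical axis. Called genes are coloured, the dashed line is the median of all genes at -0.14, and Saa2 and Saa1 stand at the top, Acot3 at the bottom.

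The libraries held 34656256 to 37511270 reads on genes, and the pair-fed libraries correlated with each other (Pearson's r of log2 values across genes, 0.991 to 0.994) more closely than the ethanol-fed ones (0.973 to 0.986). Along the second principal component, with 14.0% of the variance, ethanol-fed liver 1 lay at 27.25 and ethanol-fed livers 2 and 3 at -5.86 and -13.57. In ethanol-fed liver 1 alone, 8 genes lay more than 3 log2 units below all 5 other libraries, and no gene did so in any other library. They were Eef1a1 and 7 ribosomal protein genes, whose values stand with the translation genes below. Without ethanol-fed liver 1 the counts were 1098 higher and 3645 lower. Leaving out any other library lowered them. With pair-fed liver 1 left out, 648 genes were higher and 1509 lower. The counts were 408 and 1130 for pair-fed liver 2, and 408 and 1133 for pair-fed liver 3. They were 578 and 1814 for ethanol-fed liver 2, and 815 and 1776 for ethanol-fed liver 3. Of the 3625 calls 1321 held with each library left out in turn, and no called gene changed direction in these fits. List counts with 1 library left out, given below, are to be read beside these counts over all genes in the same fit.

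Transcripts of ethanol oxidation genes were mostly called lower. Of 17 tested genes for alcohol and aldehyde oxidation, 11 were called lower and 2 higher, with a median log2 difference of -0.46 beside -0.14 for all genes. The count of lower members was 6 under median-ratio scaling and 7 with pair-fed liver 2 left out. Adh1, the main hepatic alcohol dehydrogenase, measured 1488, 1489 and 1621 FPKM in the pair-fed livers and 869.6, 943 and 781 FPKM in the ethanol-fed livers, and the groups did not overlap (log2 difference -0.83 ± 0.11 (SE), adjusted p = 0.0025). Adh4, a class II alcohol dehydrogenase that also acts on retinol, measured 49.3, 54.7 and 54.9 FPKM in the pair-fed livers and 9.07, 8.45 and 7.11 FPKM in the ethanol-fed livers and was 6.45-fold lower in the group means (log2 difference -2.56 ± 0.11 (SE), adjusted p = 0.00017). Cyp2e1, the ethanol-inducible P450, was lower in each ethanol-fed liver than in any pair-fed one, at 4319.5, 5423 and 5322 against 1464, 1235 and 1487 FPKM (log2 difference -1.84 ± 0.13 (SE), adjusted p = 0.00048). In these 3 genes the ethanol-fed livers lay within 1.5-fold of each other. Catalase, Cat, fell from 816, 863 and 887 to 369, 383 and 364 FPKM (log2 difference -1.20 ± 0.09 (SE), adjusted p = 0.00049). Among aldehyde dehydrogenases the mitochondrial Aldh2, which takes most of the acetaldehyde, fell by only 0.36 on the log2 scale (adjusted p = 0.022). Aldh3a2, which oxidises long-chain fatty aldehydes, went from 79, 103 and 91.4 to 25.9, 17.8 and 16.7 FPKM (log2 difference -2.14 ± 0.18 (SE), adjusted p = 0.00071). Adh7, a class IV enzyme, and Aldh1l1, which releases carbon dioxide from 10-formyltetrahydrofolate, were the members called higher. Adh7 measured 1.06, 1.04 and 0.856 against 2.2, 1.9 and 1.34 FPKM. Aldh1l1 was far more abundant, at 157, 152 and 166 against 235, 268 and 304 FPKM. Aldh2 lost the call when pair-fed liver 2 was left out (adjusted p = 0.1). Adh7 lost the call when pair-fed liver 3 was left out (adjusted p = 0.096). Aldh2 was not called under median-ratio scaling.

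Acute phase genes held the steepest rises. Of 10 genes for serum amyloids, orosomucoids, pentraxins and lipocalin 2, 9 were called higher under both scalings, with a median log2 difference of 2.82. The number was 8 or 9 with any 1 library left out. Saa1, an acute phase apolipoprotein, measured 60.1, 36.1 and 32.2 FPKM in the pair-fed livers and 1361, 8032 and 6821 FPKM in the ethanol-fed livers (log2 difference 6.64 ± 0.64 (SE), adjusted p = 0.0011). The pair-fed livers lay within 2-fold of each other, whereas ethanol-fed liver 1 was far below ethanol-fed livers 2 and 3. Its neighbour Saa2 measured 37.3, 21.3 and 22.4 against 994, 8096 and 6617 FPKM, and reads may be shared between these near-identical copies, as they may be between Orm2 and Orm3. Lcn2, which sequesters bacterial siderophores, was likewise lowest in ethanol-fed liver 1 of the 3, at 53.7, 16.3 and 13.9 against 506, 1925 and 2119 FPKM (log2 difference 5.72 ± 0.66 (SE), adjusted p = 0.0018). The orosomucoid Orm1 measured 898, 597 and 689 against 2133, 4416 and 4623 FPKM. Orm2 measured 17.9, 8.45 and 6.38 against 148, 356 and 243 FPKM. Crp, the pentraxin that marks the acute phase in humans but hardly responds in mice, was not called, at 231, 204 and 261 against 156, 184 and 245 FPKM (adjusted p = 0.27). Leaving out 1 library moved the log2 difference to 7.45 for Saa1 without ethanol-fed liver 1, 8.08 for Saa2 without ethanol-fed liver 1 and 6.39 for Lcn2 without ethanol-fed liver 1.

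Of 21 other acute phase secreted proteins tested (22 listed), 14 were called higher and none lower, with a median of 1.08, and 17 were higher under median-ratio scaling. Their number was 4 and 5 with pair-fed liver 2 or 3 left out and 9 with ethanol-fed liver 3 left out, and 17 without ethanol-fed liver 1. The 3 fibrinogen chains moved together. Fgb measured 5249, 3632 and 3579 FPKM in the pair-fed livers and 5677, 12384 and 12123 FPKM in the ethanol-fed livers. Fga measured 2645, 1762 and 1709.7 against 3409.6, 7274 and 6926 FPKM. Fgg measured 2930, 2024 and 1994 against 3638, 7850.4 and 7554 FPKM. In each chain ethanol-fed liver 1 stood above the highest pair-fed liver, which was pair-fed liver 1, and livers 2 and 3 were more than 2-fold above that pair-fed liver. Haptoglobin (Hp), which binds free haemoglobin, and haemopexin (Hpx), which binds free haem, rose by 1.80 and 1.47 on the log2 scale (adjusted p = 0.0071 and 0.0073). The serine protease inhibitor Serpina3n measured 325, 232 and 163 against 1091, 2932 and 2933 FPKM (log2 difference 3.19 ± 0.42 (SE), adjusted p = 0.0025), with near-identical cluster neighbours that could take part of its reads. Lrg1, a secreted leucine-rich glycoprotein, measured 391, 166 and 135 against 576, 963 and 1141 FPKM (log2 difference 2.05 ± 0.42 (SE), adjusted p = 0.01). Steap4, a metalloreductase, was 60.9, 36.4 and 30.9 against 81.7, 461 and 288 FPKM (log2 difference 2.41 ± 0.59 (SE), adjusted p = 0.02). Cp, ceruloplasmin, the copper-carrying ferroxidase, was not called, at 272, 265 and 232 against 242, 238 and 282 FPKM. Fgb, Fga, Fgg, Lrg1 and Steap4 lost the call when pair-fed liver 2 was left out (adjusted p = 0.09, 0.055, 0.062, 0.052 and 0.095). Leaving out 1 library moved the log2 difference to 3.12 for Steap4 without ethanol-fed liver 1.

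Genes of the cytokine signals upstream of the acute phase were mixed. Of 25 tested genes of IL-6, STAT3 and NF-kB signalling 4 were called higher and 4 lower, beside backgrounds of 10% and 26%. Socs3, the feedback inhibitor that STAT3 induces, measured 6.93, 5.04 and 3.87 FPKM in the pair-fed livers and 1.38, 22.3 and 14 FPKM in the ethanol-fed livers and was not called (adjusted p = 0.55), being lowest in ethanol-fed liver 1 and highest in livers 2 and 3. Il1r1, the interleukin 1 receptor, and Bcl3, a nuclear NF-kB cofactor, were likewise highest in livers 2 and 3, and neither was called. Il1r1 measured 13.1, 9.23 and 10.7 against 7.72, 41.6 and 62.6 FPKM. Bcl3 measured 10.6, 5.57 and 7.89 against 10.8, 42.1 and 19.7 FPKM, and was called higher under median-ratio scaling (adjusted p = 0.045). Lifr, the receptor of leukaemia inhibitory factor, fell from 20.8, 24.2 and 28.6 to 11.1, 7.91 and 9.19 FPKM in all 3 livers (log2 difference -1.30 ± 0.16 (SE), adjusted p = 0.002). The transcription factors Cebpb and Cebpd, which act in the acute phase, were called higher, Cebpd at 1.26, 1.35 and 1.14 against 2.78, 5.15 and 6.61 FPKM (log2 difference 1.32 ± 0.24 (SE), adjusted p = 0.0066).

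Neutrophil markers were low throughout, and their sum was above that of the pair-fed livers in 2 of the 3 ethanol-fed livers. The summed FPKM of the 19 listed markers in the table was 21.4, 24.3 and 26.1 in the pair-fed livers and 18.5, 87 and 91.1 in the ethanol-fed livers, so that ethanol-fed liver 1 lay below all pair-fed livers. S100a8 and S100a9, given next, made up most of that sum in ethanol-fed livers 2 and 3. Of the 9 markers tested 1 was called higher and 1 lower (11.11% each), beside 10% and 26% of all genes. In 0 of the 9 did all ethanol-fed livers lie above all pair-fed ones, and in 2 they lay below. Over all genes these shares were 15.4% and 37.2%. S100a8, a subunit of calprotectin, measured 1.02, 2.07 and 3.29 FPKM in the pair-fed livers and 2.94, 21.2 and 23 FPKM in the ethanol-fed livers (log2 difference 2.10 ± 0.67 (SE), adjusted p = 0.046). Its partner S100a9 measured 5.14, 3.61 and 5.59 against 4.52, 38.4 and 42 FPKM and was not called (adjusted p = 0.08). The granule gene Ngp was listed at 0 in all pair-fed livers and in ethanol-fed liver 1. Cxcl1, a chemokine that attracts neutrophils, measured 14.6, 3.6 and 3.04 against 7.55, 178 and 140.1 FPKM and was not called (adjusted p = 0.084), again with ethanol-fed liver 1 in the pair-fed range. Saa1, Lcn2 and Steap4, described above, were also lowest in ethanol-fed liver 1 among the ethanol-fed livers, and the part of neutrophils in any of these values was not tested. In bulk samples such as these, fewer cells of a type and less RNA per cell cannot be told apart. S100a8 lost the call when pair-fed liver 2 was left out (adjusted p = 0.15). Leaving out 1 library moved the log2 difference to 2.95 for S100a8 without ethanol-fed liver 1.

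**Figure D2:**
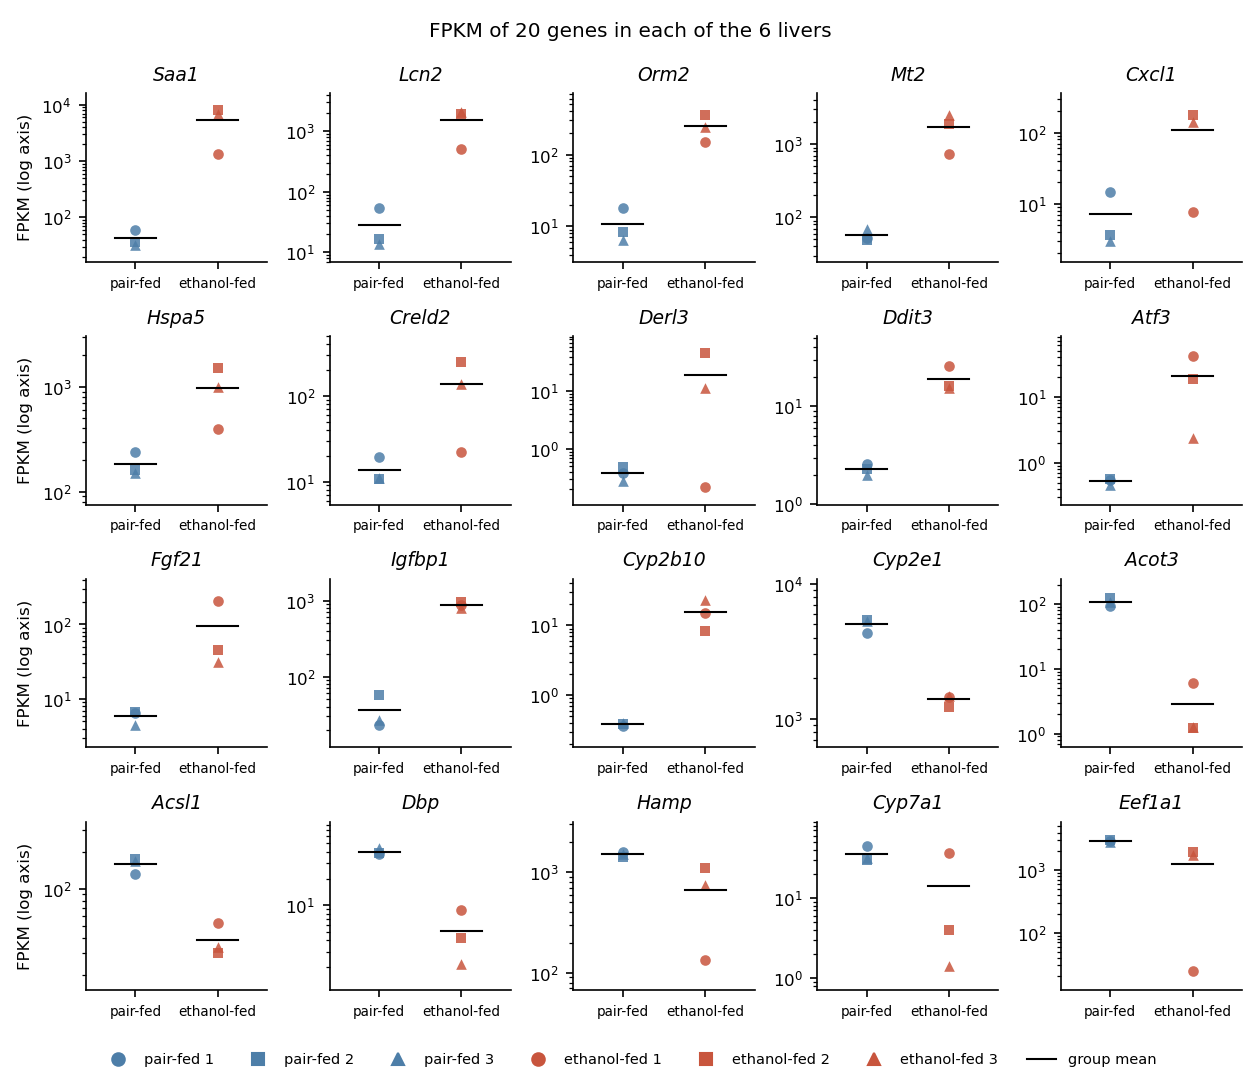
FPKM of 20 genes on log axes, 1 panel per gene, with a symbol for each of the 6 livers and a line at each group mean. Ethanol-fed liver 1 (circle) is the lowest of the ethanol-fed livers for Saa1, Lcn2, Hspa5, Creld2, Hamp and Eef1a1 and the highest for Atf3, Fgf21 and Cyp7a1, while the 3 livers lie close together for Igfbp1 and Cyp2e1.

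The metallothioneins Mt1 and Mt2, small cysteine-rich proteins that bind zinc and copper, were among the steepest rises. Their promoters are shown because metallothionein genes are known for metal response elements, here searched as TGCACNC or TGCGCNC on both strands. Sequences are the 250 bases before to 50 bases after the annotated start from RefSeq on GRCm38.p6, 5′ to 3′ on the gene's strand, with matches in capitals, also those read on the opposite strand; Mt1 is at chr8:94178839-94179138, plus strand, and Mt2 at chr8:94172368-94172667, plus strand.
Mt1: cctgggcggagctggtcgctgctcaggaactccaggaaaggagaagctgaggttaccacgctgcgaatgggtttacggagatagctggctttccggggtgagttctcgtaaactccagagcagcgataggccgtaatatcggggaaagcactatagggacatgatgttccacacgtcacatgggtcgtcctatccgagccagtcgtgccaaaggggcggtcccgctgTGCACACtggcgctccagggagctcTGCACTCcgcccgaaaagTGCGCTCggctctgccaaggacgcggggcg
Mt2: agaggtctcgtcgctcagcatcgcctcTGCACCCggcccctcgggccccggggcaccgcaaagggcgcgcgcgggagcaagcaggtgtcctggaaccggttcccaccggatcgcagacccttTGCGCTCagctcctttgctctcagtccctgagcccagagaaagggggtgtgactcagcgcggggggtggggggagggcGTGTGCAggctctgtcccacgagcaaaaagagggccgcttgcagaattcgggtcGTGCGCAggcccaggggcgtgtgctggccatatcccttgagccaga
There were 3 matches for Mt1, at -23 to -17, 3 to 9 and 21 to 27 counted from the start used for this window, and 4 for Mt2. The listed start of the Mt1 gene, 94178883, lies upstream of that start and inside the window. The Mt1 positions thus depend on which start is taken. A match is common, with 28.2% of the 27025 genes with such a window holding at least 1, and 39.8% of the genes tested. In the livers, Mt1 measured 42.1, 49.9 and 58.1 FPKM in the pair-fed livers and 469.6, 1207 and 1618 FPKM in the ethanol-fed livers (log2 difference 4.26 ± 0.42 (SE), adjusted p = 0.0011). Mt2 measured 52.2, 49 and 69.9 against 726, 1872 and 2487 FPKM (log2 difference 4.71 ± 0.42 (SE), adjusted p = 0.00084). Neither gene's groups overlapped, with ethanol-fed liver 1 lowest of the 3. Of 15 tested genes for metallothioneins and zinc transport 7 were called higher and 2 lower, the higher count being 3 and 3 with pair-fed liver 2 or 3 left out and 4 and 4 with ethanol-fed liver 2 or 3 left out. Slc39a14, a zinc and iron importer of the acute phase, measured 34.9, 23.3 and 24.6 against 35.5, 87.3 and 87.8 FPKM and was called higher (log2 difference 1.23 ± 0.35 (SE), adjusted p = 0.031). The zinc importer Slc39a5 fell from 1.56, 1.83 and 1.7 to 0.577, 0.500 and 0.44 FPKM. The zinc exporter Slc30a1 was not called, at 9.6, 10.6 and 11.2 against 20.1, 13 and 7.27 FPKM. Slc39a14 lost the call when pair-fed liver 2 was left out (adjusted p = 0.11). Slc39a5 fell below the filter on low values in a fit with 1 library left out.

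Of 40 tested genes for ER chaperones and the machinery that removes misfolded proteins (ER-associated degradation, ERAD), 24 were called higher, beside 10% of all genes, with uneven values between livers. Several genes of this group are textbook targets of the unfolded protein response, through ATF6 and XBP1, by way of the ER stress response element, searched here as CCAAT, then 9 bases of any kind, then CCACG, on both strands. It was found in 37 of 27025 genes with a window (0.137%) and in 15 of 8067 genes tested with a window (0.186%). Of genes called higher by 2-fold or more 6 of 186 held it (3.23%), and of those called lower by 2-fold or more 0 of 299. In the ER list it was in 9 of 34 genes with a window (26.5%): Hspa5, Hsp90b1, Calr, Canx, Pdia6, Dnajc3, Creld2, Syvn1 and Ero1b. Hspa5, Creld2 and Syvn1 are in both the higher set and the ER list. The list follows known members of the pathway and was chosen with earlier results known, so its share is no separate evidence. With the 5-base ends in capitals, 4 promoters that hold it are shown, from the same source and build. Hspa5, Creld2 and Syvn1 are among the steepest rises of the list, and Derl3, which holds the element in its window and was not tested, was chosen after its values were seen. Positions are chr2:34771840-34772139, plus strand, for Hspa5, chr15:88819396-88819695, plus strand, for Creld2, chr19:6046326-6046625, plus strand, for Syvn1, and chr10:75893148-75893447, plus strand, for Derl3.
Hspa5: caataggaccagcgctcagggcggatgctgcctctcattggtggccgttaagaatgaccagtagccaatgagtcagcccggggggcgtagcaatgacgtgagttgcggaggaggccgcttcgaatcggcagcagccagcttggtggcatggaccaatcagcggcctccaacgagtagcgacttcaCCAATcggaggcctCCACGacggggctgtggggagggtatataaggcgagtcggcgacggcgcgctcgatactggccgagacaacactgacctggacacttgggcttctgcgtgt
Creld2: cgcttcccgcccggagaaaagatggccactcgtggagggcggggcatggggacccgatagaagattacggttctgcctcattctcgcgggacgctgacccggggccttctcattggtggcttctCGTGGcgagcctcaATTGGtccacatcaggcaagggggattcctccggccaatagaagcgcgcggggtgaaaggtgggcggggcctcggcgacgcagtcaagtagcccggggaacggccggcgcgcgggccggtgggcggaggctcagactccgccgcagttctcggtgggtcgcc
Syvn1: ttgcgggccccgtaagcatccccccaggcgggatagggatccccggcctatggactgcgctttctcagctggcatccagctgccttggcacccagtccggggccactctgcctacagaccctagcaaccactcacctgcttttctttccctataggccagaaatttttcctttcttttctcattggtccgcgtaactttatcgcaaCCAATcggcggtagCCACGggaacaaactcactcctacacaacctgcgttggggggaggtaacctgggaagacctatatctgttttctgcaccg
Derl3: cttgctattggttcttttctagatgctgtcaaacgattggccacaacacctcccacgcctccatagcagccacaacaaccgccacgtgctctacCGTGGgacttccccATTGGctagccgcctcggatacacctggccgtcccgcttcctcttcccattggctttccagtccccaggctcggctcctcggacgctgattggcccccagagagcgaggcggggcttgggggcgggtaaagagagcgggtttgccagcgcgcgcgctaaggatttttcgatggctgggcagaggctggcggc
The element lay at -65 to -47 in Hspa5, -126 to -108 in Creld2, -44 to -26 in Syvn1 and -156 to -138 in Derl3. The windows of Sdf2l1 and Herpud1 hold no match, which says only that these letters are not in them, and a match is a description and not a shown binding site.

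No tested ER gene was called lower, and 16 were not called. The median log2 difference of the list was 0.80, and 29 genes were higher under median-ratio scaling. The number called higher was 14, 4 and 5 with pair-fed liver 1, 2 or 3 left out and 12 and 9 with ethanol-fed liver 2 or 3 left out, and 35 without ethanol-fed liver 1. Hspa5, the ER chaperone BiP, measured 238, 161 and 150 FPKM in the pair-fed livers and 395, 1523 and 999.5 FPKM in the ethanol-fed livers (log2 difference 2.23 ± 0.46 (SE), adjusted p = 0.011). Creld2, a disulfide isomerase-like ER protein, measured 19.6, 10.7 and 11.1 against 22.3, 250.3 and 139 FPKM (log2 difference 2.71 ± 0.80 (SE), adjusted p = 0.036). Sdf2l1, a BiP cofactor, measured 5.34, 3.2 and 3.49 against 7.16, 64.5 and 49.3 FPKM. Syvn1, the ubiquitin ligase of ERAD, measured 12.9, 10.9 and 11 against 22.7, 138 and 80.7 FPKM (log2 difference 2.36 ± 0.57 (SE), adjusted p = 0.018). Each of these genes was at its highest in ethanol-fed liver 2, whereas ethanol-fed liver 1, though above the pair-fed range, was closer to it than to ethanol-fed livers 2 and 3. Derl3, an ERAD channel component, was at 0.377, 0.483 and 0.28 against 0.215, 45.8 and 11.3 FPKM and so was above 1 FPKM in 2 libraries only, below the filter. Xbp1, the transcription factor spliced in this response, rose in all 3 livers, at 80.4, 63.2 and 60.1 against 119, 209.7 and 147 FPKM (log2 difference 1.18 ± 0.21 (SE), adjusted p = 0.0068). Atf6, a sensor of the same response, did too, at 14.2, 13.9 and 16.3 against 20.5, 24.5 and 21.7 FPKM. Canx, the membrane lectin chaperone calnexin, was not called, at 91.7, 88.7 and 87.5 against 80.8, 99 and 88.7 FPKM. Pdia4, a disulfide isomerase, was not called either, at 73.1, 62.8 and 54.9 against 58.4, 301 and 183 FPKM (adjusted p = 0.11). Hspa5, Creld2, Sdf2l1, Syvn1 and Atf6 lost the call when pair-fed liver 2 was left out (adjusted p = 0.053, 0.15, 0.12, 0.087 and 0.05). Leaving out 1 library moved the log2 difference to 2.00 for Creld2 without ethanol-fed liver 2, 3.72 for Creld2 without ethanol-fed liver 1, 3.54 for Sdf2l1 without ethanol-fed liver 1 and 3.09 for Syvn1 without ethanol-fed liver 1.

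Targets of the transcription factors ATF4 and CHOP (Ddit3), which are induced when kinases such as PERK and GCN2 phosphorylate eIF2α, were called higher in part. Of 25 tested genes 13 were called higher and 2 lower, with a median of 0.97, and 17 higher and none lower under median-ratio scaling. The higher count was 7 with pair-fed liver 3 left out and 8 with ethanol-fed liver 2 left out. Atf4 itself was higher in every ethanol-fed liver, from 40.02, 46.9 and 44 to 93.5, 86.2 and 80.4 FPKM (log2 difference 0.97 ± 0.10 (SE), adjusted p = 0.0013). Ddit3 went from 2.57, 2.28 and 1.99 to 26, 16 and 15.4 FPKM (log2 difference 2.58 ± 0.20 (SE), adjusted p = 0.0005). Atf3, an immediate early repressor, measured 0.539, 0.561 and 0.462 FPKM in the pair-fed livers and 41.5, 18.4 and 2.37 FPKM in the ethanol-fed livers (log2 difference 3.21 ± 0.80 (SE), adjusted p = 0.021). Ddit4, an inhibitor of mTORC1, measured 1.39, 1.27 and 1.66 against 28.4, 14.5 and 8.37 FPKM (log2 difference 2.74 ± 0.36 (SE), adjusted p = 0.0025). Trib3, a pseudokinase that inhibits AKT, measured 1.73, 1.86 and 3.58 against 28.8, 22.2 and 2.65 FPKM and was not called (adjusted p = 0.064), with ethanol-fed liver 3 inside the pair-fed range. Chac1, which degrades glutathione, was highest in ethanol-fed liver 2, at 2.18, 1.59 and 1.56 against 9.82, 33 and 9.95 FPKM (log2 difference 2.53 ± 0.42 (SE), adjusted p = 0.0052). Among the lower members Shmt2, a mitochondrial serine hydroxymethyltransferase, measured 64, 66.4 and 61.6 against 50.2, 54.9 and 41.1 FPKM. Atf3 and Shmt2 lost the call when pair-fed liver 2 was left out (adjusted p = 0.1 and 0.13). Shmt2 was not called under median-ratio scaling.

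A core of the C/EBP-ATF response element, searched as TGATGNAA on both strands, was present in the windows of 4.51% of all genes, of 2.7% of genes tested and of 6 of 22 genes of the list (27.3%: Chac1, Atf3, Trib3, Nupr1, Vldlr and Fgf21). It was present in 13 of 186 genes called higher by 2-fold or more (6.99%), and in 5 of 299 called lower by as much (1.67%). The promoters of Chac1, at chr2:119350992-119351291, plus strand, Atf3, at chr1:191183284-191183583, minus strand, and Trib3, at chr2:152344011-152344310, minus strand, are shown as 3 members with the element in capitals, chosen after their values were seen.
Chac1: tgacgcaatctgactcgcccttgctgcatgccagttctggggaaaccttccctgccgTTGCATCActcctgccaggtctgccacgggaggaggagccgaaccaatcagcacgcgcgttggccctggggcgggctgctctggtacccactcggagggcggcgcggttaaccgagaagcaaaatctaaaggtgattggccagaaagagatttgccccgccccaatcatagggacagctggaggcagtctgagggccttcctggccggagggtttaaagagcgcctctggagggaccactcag
Atf3: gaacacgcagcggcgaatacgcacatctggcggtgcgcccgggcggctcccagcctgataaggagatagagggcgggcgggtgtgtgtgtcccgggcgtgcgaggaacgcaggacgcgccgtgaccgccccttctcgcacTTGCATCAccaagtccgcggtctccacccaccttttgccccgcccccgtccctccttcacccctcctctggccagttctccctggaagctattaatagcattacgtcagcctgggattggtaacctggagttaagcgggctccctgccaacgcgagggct
Trib3: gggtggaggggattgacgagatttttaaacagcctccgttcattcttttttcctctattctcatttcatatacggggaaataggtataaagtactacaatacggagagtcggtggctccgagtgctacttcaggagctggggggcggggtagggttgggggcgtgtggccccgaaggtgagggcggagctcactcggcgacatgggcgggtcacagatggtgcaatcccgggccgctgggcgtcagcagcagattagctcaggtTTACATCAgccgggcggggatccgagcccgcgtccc
The match lay at -193 to -186 in Chac1, -110 to -103 in Atf3 and 15 to 22 in Trib3. Of these only Chac1 peaked in ethanol-fed liver 2, and Ddit3 has no match in its window. Cytosolic aminoacyl-tRNA synthetases, which charge tRNAs with amino acids, held the element in 5 of 13 windows (38.5%: Aars, Gars, Iars, Tars and Yars). Of 20 tested synthetases 8 were called higher and none lower, and 14 were higher under median-ratio scaling. The count was 3, 0 and 1 with pair-fed liver 1, 2 or 3 left out and 4 with ethanol-fed liver 2 left out. Among them Tars measured 54.6, 39.7 and 43.9 against 75.5, 96.3 and 64.7 FPKM (log2 difference 0.76 ± 0.17 (SE), adjusted p = 0.015), while the alanine enzyme Aars was not called (adjusted p = 0.17). Under median-ratio scaling Aars was called higher (adjusted p = 0.04). Tars lost the call when pair-fed liver 2 was left out (adjusted p = 0.063).

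Secreted factors of the hepatocyte, or hepatokines, included Fgf21 and Gdf15. Of 26 tested 8 were called higher and 4 lower, the higher count being 10 under median-ratio scaling and 3, 3 and 3 with pair-fed liver 1, 2 or 3 left out and 4 with ethanol-fed liver 2 left out. Fgf21, a hormone of fasting and stress, measured 6.53, 6.66 and 4.48 FPKM in the pair-fed livers and 205, 45.9 and 31.4 FPKM in the ethanol-fed livers (log2 difference 3.32 ± 0.62 (SE), adjusted p = 0.0076), with the highest value in ethanol-fed liver 1. Gdf15, a stress cytokine that acts on the brain stem, was 3.17, 2.81 and 4.7 against 27.2, 9.54 and 6.49 FPKM (log2 difference 1.54 ± 0.45 (SE), adjusted p = 0.034), also highest there. Fst, follistatin, the activin antagonist, rose to like levels in the 3 livers, from 0.322, 0.383 and 0.436 to 3.36, 3.1 and 3.67 FPKM (log2 difference 1.66 ± 0.09 (SE), adjusted p = 0.00032). The activin subunit genes diverged. Inhbb was called higher, at 0.57, 0.572 and 0.574 against 1.82, 2.03 and 6.76 FPKM. Inhbc was called lower, at 50.9, 46.6 and 55 against 27.8, 25.6 and 11.5 FPKM. Igfbp1, the binding protein of insulin-like growth factors that insulin represses, is not among these 26 and is counted with the insulin axis below. It rose in all 3 livers, at 23.3, 57.4 and 26.9 against 877, 969 and 794 FPKM (log2 difference 4.69 ± 0.31 (SE), adjusted p = 0.00042). Gdf15 and Inhbb lost the call when pair-fed liver 2 was left out (adjusted p = 0.12 and 0.083). Inhbc lost the call when pair-fed liver 3 was left out (adjusted p = 0.063). Fst fell below the filter on low values in a fit with 1 library left out. Leaving out 1 library moved the log2 difference to 2.52 for Fgf21 without ethanol-fed liver 1.

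Immediate early and growth-response genes rose in part. Of 35 tested, 15 were called higher and 6 lower, with 18 higher under median-ratio scaling, and the higher count was 9 with pair-fed liver 3 left out. Jun measured 3.08, 4.9 and 4.19 against 15, 15.2 and 13.2 FPKM (log2 difference 1.63 ± 0.15 (SE), adjusted p = 0.00093). Klf10, a TGF-beta inducible repressor, measured 10.1, 17.7 and 7.92 against 47.4, 34.8 and 27.8 FPKM (log2 difference 1.58 ± 0.29 (SE), adjusted p = 0.0074). Btg2, an antiproliferative cofactor, measured 2.28, 2.77 and 1.73 against 13.2, 27.2 and 25.3 FPKM (log2 difference 2.76 ± 0.27 (SE), adjusted p = 0.001). Egr1 was not called, at 2.34, 13.9 and 4.59 against 34.4, 10.4 and 24.2 FPKM, but was called higher under median-ratio scaling (adjusted p = 0.0445). Fos rose at low levels, at 0.291, 1.18 and 0.229 against 1.77, 1.37 and 2.01 FPKM. Ccn1, a secreted matrix protein, was lower, at 3.02, 3.54 and 3.71 against 1.21, 0.609 and 0.517 FPKM (log2 difference -1.33 ± 0.16 (SE), adjusted p = 0.0018). Among growth arrest genes Cdkn1a, the inhibitor p21 of cyclin-dependent kinases, measured 2.1, 1.97 and 0.99 FPKM in the pair-fed livers and 21.7, 15.4 and 32.7 FPKM in the ethanol-fed livers (log2 difference 3.14 ± 0.28 (SE), adjusted p = 0.00084). Mdm2, like Cdkn1a a p53 target, was not called, at 3.42, 4.36 and 3.86 against 4.46, 4.00 and 4.31 FPKM. Fos lost the call when pair-fed liver 3 was left out (adjusted p = 0.091).

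Transcripts of fatty acid oxidation genes were mostly called lower. All 23 tested genes for mitochondrial beta-oxidation and the carnitine shuttle were called lower, with a median log2 difference of -0.75, and 20 of them under median-ratio scaling. The number stayed between 19 and 23 when 1 library was left out. Acsl1, which activates long-chain fatty acids, measured 132, 176 and 169.6 FPKM in the pair-fed livers and 52.7, 30.01 and 33.5 FPKM in the ethanol-fed livers (log2 difference -2.05 ± 0.22 (SE), adjusted p = 0.0013). Cpt1a, the rate-limiting step of mitochondrial entry, fell from 118, 127 and 108 to 71.6, 63.1 and 48.6 FPKM (log2 difference -0.95 ± 0.15 (SE), adjusted p = 0.0044). The carnitine-acylcarnitine carrier Slc25a20 fell from 91.2, 97.6 and 92.8 to 48.5, 46 and 50.9 FPKM (log2 difference -0.94 ± 0.09 (SE), adjusted p = 0.00095). Crat, which makes acetylcarnitine, measured 20.1, 24.9 and 25.4 against 8.37, 5.73 and 7.92 FPKM (log2 difference -1.56 ± 0.16 (SE), adjusted p = 0.0011). The smallest differences were those of Acads and Etfb, at -0.36 and -0.36. Bdh1, which makes beta-hydroxybutyrate, measured 96.9, 108 and 86.4 against 47.5, 38.2 and 26.9 FPKM. Slc16a6, a ketone body exporter, went the other way, at 1.38, 1.02 and 1.1 against 7.52, 7.62 and 5.26 FPKM (log2 difference 1.84 ± 0.15 (SE), adjusted p = 0.00065). Acads and Etfb lost the call when pair-fed liver 2 was left out (adjusted p = 0.16 and 0.11). Acads and Etfb were not called under median-ratio scaling.

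In peroxisomes, which shorten very long and branched chains, 23 of 31 tested genes were called lower and none higher, with a median of -0.60; under median-ratio scaling 20 were lower and 1 higher. With 1 library left out the number lay between 18 and 27. Acaa1b, a peroxisomal thiolase, measured 301, 401 and 354 FPKM in the pair-fed livers and 95.5, 86.7 and 77.8 FPKM in the ethanol-fed livers (log2 difference -2.01 ± 0.13 (SE), adjusted p = 0.00042). Hacl1, a lyase for 2-hydroxy fatty acids, was 141, 125 and 146 against 41.6, 43.9 and 34.5 FPKM (log2 difference -1.76 ± 0.12 (SE), adjusted p = 0.00042). Crot, carnitine octanoyltransferase, measured 172, 169 and 164 against 53, 59.2 and 43.5 FPKM (log2 difference -1.69 ± 0.12 (SE), adjusted p = 0.00048). The importer Abcd2 measured 25.4, 31.5 and 30.4 against 8.00, 5.38 and 5.76 FPKM. Ehhadh, the bifunctional enzyme, measured 168, 256 and 185 against 64.9, 68.6 and 68 FPKM.

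PPARα is the nuclear receptor that induces most of these genes in fasting. Its own gene Ppara measured 41, 50.4 and 46.4 FPKM in the pair-fed livers and 18, 10.8 and 10.2 FPKM in the ethanol-fed livers (log2 difference -1.78 ± 0.21 (SE), adjusted p = 0.0018). Of 26 tested genes for the receptor, its partners and its targets, 17 were called lower and 3 higher, with a median of -0.86, and 15 lower and 5 higher under median-ratio scaling; some of these are counted above. The higher members were Fgf21, Cidec, a lipid droplet fusion protein, and Slc25a47, a mitochondrial carrier, with Cidec at 0.775, 0.817 and 0.168 against 10.8, 4.51 and 1.87 FPKM. Acyl-CoA thioesterases, which release free fatty acids, held some of the steepest falls. The peroxisomal Acot3 measured 91.6, 123 and 109 against 6.07, 1.22 and 1.24 FPKM (log2 difference -5.04 ± 0.43 (SE), adjusted p = 0.00072). The cytosolic Acot1 measured 29.4, 56.5 and 54.1 against 3.18, 3.25 and 3.52 FPKM (log2 difference -3.41 ± 0.23 (SE), adjusted p = 0.00043). Acot4 measured 31.4, 43.8 and 37.5 against 10.4, 4.82 and 3.81 FPKM (log2 difference -2.48 ± 0.31 (SE), adjusted p = 0.0021). Acot1 and Acot3 are near-identical copies that may share reads. Of 11 tested Cyp4 genes for fatty acid hydroxylation 8 were lower under both scalings. Cyp4a14 measured 401, 639 and 680.1 against 172, 148 and 229 FPKM. Cyp4f15 measured 53.5, 65.2 and 64.2 against 33.3, 18.9 and 20.6 FPKM. Fabp1, the abundant liver fatty acid binding protein, fell from 8401, 10113 and 7696 to 3599, 2582 and 2944 FPKM (log2 difference -1.53 ± 0.16 (SE), adjusted p = 0.0013). Plin2, a lipid droplet coat protein and PPARα target, was not called, at 153, 142 and 135 against 169, 194 and 142 FPKM. Under median-ratio scaling Plin2 was called higher (adjusted p = 0.034). Cidec lost the call when pair-fed liver 3 was left out (adjusted p = 0.078).

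Genes for the synthesis of fatty acids and triglycerides were called in both directions. Of 31 tested genes 8 were called higher and 8 lower, beside 10% higher and 26% lower of all genes, with a median of 0.02, and the counts were 11 and 6 under median-ratio scaling, beside 17.9% and 16.6%. The higher count was 3 and 2 with pair-fed liver 2 or 3 left out. Fasn, fatty acid synthase, measured 43.5, 33.3 and 26.1 FPKM in the pair-fed livers and 121, 130.2 and 56.5 FPKM in the ethanol-fed livers (log2 difference 1.49 ± 0.33 (SE), adjusted p = 0.013). Thrsp, a cofactor of lipogenesis, measured 118, 110.3 and 78.4 against 579.8, 433 and 304 FPKM (log2 difference 2.06 ± 0.25 (SE), adjusted p = 0.002). Acly, which makes cytosolic acetyl-CoA, was not called, at 24, 20.1 and 16.4 against 87.1, 56.9 and 19.4 FPKM, and ethanol-fed liver 3 was within the pair-fed range. Srebf1, whose product SREBP1c drives these genes, was lower, at 41.1, 45.7 and 40.7 against 25, 23.7 and 9.67 FPKM (log2 difference -1.19 ± 0.32 (SE), adjusted p = 0.025), and lowest in ethanol-fed liver 3. The elongase Elovl2 and the desaturases Fads1 and Fads2, which make long polyunsaturated fatty acids, were lower, Elovl2 at 202, 242 and 251 against 92.9, 90.2 and 70.2 FPKM (log2 difference -1.45 ± 0.14 (SE), adjusted p = 0.0011). In the lipid droplet list 11 of 24 tested genes were lower and 4 higher. Its lowest was the carboxylesterase Ces1d, a triglyceride hydrolase, at 408, 512 and 538 against 127, 98.1 and 128 FPKM. Plin3, another droplet coat protein, rose, at 13.7, 12.4 and 13.1 against 25.1, 26.6 and 27.2 FPKM. Fasn lost the call when pair-fed liver 3 was left out (adjusted p = 0.057). Srebf1 lost the call when pair-fed liver 2 was left out (adjusted p = 0.095).

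Cholesterol synthesis genes were mostly called lower. Of 30 tested genes of the pathway and of SREBP2, 18 were called lower and 2 higher, and the others were not called, with a median of -0.58, and 14 lower under median-ratio scaling. The lower count was 10 and 9 with pair-fed liver 1 or 2 left out. Insig1, which retains SREBP in the ER, fell from 60.5, 75.1 and 83.2 to 16.5, 23.5 and 13.6 FPKM (log2 difference -1.99 ± 0.21 (SE), adjusted p = 0.0012). Its paralogue Insig2 rose, at 20.8, 21.9 and 22.1 against 69.9, 37.2 and 44.4 FPKM (log2 difference 1.14 ± 0.21 (SE), adjusted p = 0.0074). Hmgcs1, an early step of the pathway, measured 63.1, 68.3 and 51.6 against 20.7, 29.3 and 12.9 FPKM. Sqle, squalene epoxidase, was the other member called higher, at 10.6, 7.81 and 5.34 against 18.5, 29.7 and 18.2 FPKM (log2 difference 1.38 ± 0.26 (SE), adjusted p = 0.0076).

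Lipoprotein genes were called lower in part, and how many depends on the scaling. Of 29 tested 15 were called lower and 3 higher, beside 26% and 10% of all genes. Under median-ratio scaling 5 were lower and 4 higher, beside 16.6% and 17.9% of all genes, so that the lower share was near the background. The lower count was 5, 4 and 5 with pair-fed liver 1, 2 or 3 left out and 7 with ethanol-fed liver 3 left out. Apoa4, an apolipoprotein that rises with hepatic fat export, measured 289, 224 and 199.7 FPKM in the pair-fed livers and 1317, 625 and 535 FPKM in the ethanol-fed livers (log2 difference 1.69 ± 0.33 (SE), adjusted p = 0.0085). Abca1, which loads cholesterol onto nascent high density lipoprotein, rose as well, at 19.4, 24.4 and 21.7 against 34.9, 53.7 and 59.1 FPKM (log2 difference 1.11 ± 0.20 (SE), adjusted p = 0.0066). Scarb1, the receptor that takes cholesterol from high density lipoprotein, fell, at 33.1, 35.6 and 39.8 against 21.4, 16 and 18.7 FPKM (log2 difference -0.92 ± 0.13 (SE), adjusted p = 0.0029). Hepatic lipase, Lipc, fell too, at 72, 78.8 and 87.7 against 42.5, 40.2 and 39.5 FPKM. The abundant Apoa2 and Apoe fell by 0.44 and 0.42 on the log2 scale, whereas Apob, the backbone of very low density lipoprotein, was not called, at 687, 747 and 825 against 767, 669 and 696 FPKM. Apoa2 lost the call when pair-fed liver 1 was left out (adjusted p = 0.07). Apoe lost the call when pair-fed liver 2 was left out (adjusted p = 0.089). Apoa2 and Apoe were not called under median-ratio scaling.

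Of 20 tested genes for the synthesis and conjugation of bile acids 12 were called lower and 2 higher, 11 and 4 under median-ratio scaling, with the lower count 6 with pair-fed liver 2 left out. Cyp7a1, the rate-limiting enzyme, measured 45, 30.01 and 31.9 FPKM in the pair-fed livers and 36.6, 4.01 and 1.41 FPKM in the ethanol-fed livers and was not called (adjusted p = 0.098). Its ethanol-fed livers were far apart, with liver 1 in the pair-fed range. Nr0b2, the repressor SHP that bile acids induce through FXR, was lower in all 3, at 17, 10.6 and 12.5 against 2.39, 1.59 and 3.27 FPKM (log2 difference -2.08 ± 0.22 (SE), adjusted p = 0.0013). Akr1c6, a hydroxysteroid dehydrogenase, measured 640.3, 754 and 787 against 318, 252 and 252 FPKM (log2 difference -1.41 ± 0.14 (SE), adjusted p = 0.001). Baat, which conjugates bile acids with taurine, was called higher, at 64.5, 57 and 65.2 against 83.3, 89.6 and 99.2 FPKM. The sterol half-transporters Abcg5 and Abcg8, which export cholesterol into bile, both fell, Abcg8 at 31, 44.7 and 37.1 against 13.6, 5.43 and 5.38 FPKM (log2 difference -2.18 ± 0.32 (SE), adjusted p = 0.0036).

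Drug-metabolising genes were mostly lower. Of 40 tested P450 genes of families 1 to 3 25 were called lower and 3 higher, with a median of -0.65; the counts were 23 and 4 under median-ratio scaling, and the lower count was 15 and 16 with pair-fed liver 2 or 3 left out. Cyp2b10, the classic target of the receptor CAR, rose from 0.355, 0.389 and 0.401 to 15.2, 8.29 and 23.2 FPKM (log2 difference 3.48 ± 0.31 (SE), adjusted p = 0.00084). The CAR gene Nr1i3 itself fell, at 148, 158 and 164 against 61.4, 33.5 and 38.7 FPKM (log2 difference -1.84 ± 0.21 (SE), adjusted p = 0.0016). Cyp2c23 measured 114, 156 and 155 against 34.6, 31.6 and 28.9 FPKM (log2 difference -2.11 ± 0.14 (SE), adjusted p = 0.00042). Cyp3a25 measured 421, 428 and 496 against 253, 154 and 177 FPKM. Cyp3a11, the main hepatic Cyp3a, was not called, at 1327, 1386 and 1132 against 961, 1027 and 1169 FPKM. Members of these clusters are similar in sequence and may share reads. Of 29 tested glucuronosyl- and sulfotransferases 17 were lower and 3 higher (15 and 3 under median-ratio scaling), the lower count being 10 with pair-fed liver 2 left out and 11 with ethanol-fed liver 3 left out. Sult1e1, the estrogen sulfotransferase, rose from 1.1, 0.773 and 0.64 to 21.6, 10.3 and 11.1 FPKM (log2 difference 2.99 ± 0.26 (SE), adjusted p = 0.00084). Cyp2b10 fell below the filter on low values in a fit with 1 library left out.

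Of 37 tested glutathione enzymes and NRF2 targets 14 were called lower and 5 higher (37.84% and 13.51%), beside 26% and 10% of all genes. Under median-ratio scaling 9 were lower. The lower count was 9, 7 and 8 with pair-fed liver 1, 2 or 3 left out and 8 with ethanol-fed liver 3 left out. Gclm, the modifier subunit of the enzyme that starts glutathione synthesis, measured 97.9, 90.7 and 94.1 FPKM in the pair-fed livers and 47.4, 45 and 34.7 FPKM in the ethanol-fed livers (log2 difference -1.15 ± 0.13 (SE), adjusted p = 0.0016). Gpx1, glutathione peroxidase 1, fell from 1036, 922 and 1154 to 669, 637 and 601 FPKM. Sod1, the cytosolic superoxide dismutase, fell from 975, 1004 and 1090.4 to 628, 614 and 641 FPKM. Other oxidative stress genes rose, with Hmox1, heme oxygenase 1, at 14.5, 15.1 and 15.6 against 43.5, 47.3 and 29.9 FPKM (log2 difference 1.34 ± 0.17 (SE), adjusted p = 0.0022). Srxn1, sulfiredoxin, rose as well, at 8.79, 6.87 and 6.54 against 22.7, 15 and 11.8 FPKM. Nqo1, a standard NRF2 target, was not called, at 2.05, 2.1 and 1.38 against 2.1, 2.02 and 2.2 FPKM. Srxn1 lost the call when pair-fed liver 3 was left out (adjusted p = 0.058).

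In methionine metabolism, which supplies the methyl donor S-adenosylmethionine, transcripts changed at a few abundant steps. Bhmt, which remethylates homocysteine with betaine, measured 741, 613 and 529 FPKM in the pair-fed livers and 3253, 2158 and 2739 FPKM in the ethanol-fed livers (log2 difference 2.11 ± 0.19 (SE), adjusted p = 0.00084). Mat1a, the hepatic synthase of S-adenosylmethionine, measured 911, 912 and 955 against 1987, 1860.4 and 2380.4 FPKM (log2 difference 1.16 ± 0.12 (SE), adjusted p = 0.0012). Nnmt, which methylates nicotinamide, rose from 17.2, 8.2 and 13 to 62.3, 87.9 and 129.9 FPKM (log2 difference 2.77 ± 0.32 (SE), adjusted p = 0.0017). Over the list of 24 tested genes 5 were called higher and 9 lower (20.83% and 37.5%), beside 10% and 26% of all genes. Under median-ratio scaling 8 were higher and 5 lower. The lower count was 4, 4 and 4 with pair-fed liver 1, 2 or 3 left out and 5 and 5 with ethanol-fed liver 2 or 3 left out. In the urea cycle, which detoxifies ammonia, 7 of 17 tested genes were higher and 4 lower (41.18% and 23.53%, beside 10% and 26% of all genes). Asl, argininosuccinate lyase, measured 101, 99.9 and 119 against 284, 198 and 249 FPKM (log2 difference 1.18 ± 0.15 (SE), adjusted p = 0.0022). The aspartate carrier Slc25a13 was lower, at 52, 60.4 and 59 against 26.8, 22.1 and 23.2 FPKM (log2 difference -1.22 ± 0.11 (SE), adjusted p = 0.00086).

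Genes of sugar sensing and glycolysis rose more often than they fell. Of 32 tested 12 were called higher and 3 lower (13 and 2 under median-ratio scaling), the higher count being 5 and 4 with pair-fed liver 2 or 3 left out and 7 with ethanol-fed liver 2 left out. Khk, fructokinase, measured 164, 144 and 162 FPKM in the pair-fed livers and 298, 268 and 233 FPKM in the ethanol-fed livers (log2 difference 0.76 ± 0.12 (SE), adjusted p = 0.0042). Mlxipl, which encodes the sugar-responsive factor ChREBP, was not called, at 57.6, 51.7 and 66.8 against 52, 40.9 and 28.6 FPKM. Of 28 tested genes of the insulin, IGF and growth hormone axis 12 were lower and 4 higher (42.86% and 14.29%), beside 26% and 10% of all genes. Under median-ratio scaling 8 were lower and 5 higher, and the lower count was 7 with pair-fed liver 3 left out. Igfbp1, described above, was the steepest rise of this list (log2 difference 4.69). Ghr, the growth hormone receptor, measured 115, 139 and 135 against 74.6, 61.1 and 51.6 FPKM (log2 difference -1.06 ± 0.15 (SE), adjusted p = 0.003). Socs2, which growth hormone induces, measured 2.53, 3.44 and 3.46 against 1.15, 0.529 and 0.557 FPKM (log2 difference -1.26 ± 0.16 (SE), adjusted p = 0.0024). Igfals, which stabilises circulating IGF complexes, measured 37.5, 40.1 and 43 against 12.2, 4.95 and 6.88 FPKM (log2 difference -2.27 ± 0.26 (SE), adjusted p = 0.0018). Igf1 itself was not called, at 78.6, 79.7 and 77.5 against 63.5, 66.1 and 86.8 FPKM.

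Nuclear receptors, the ligand-gated transcription factors of metabolism, were called in 1 direction. Of 33 tested 17 were lower and none higher, with 11 lower and 1 higher under median-ratio scaling, and the lower count was 9 and 9 with pair-fed liver 2 or 3 left out. Besides Ppara, Nr0b2 and Nr1i3 they included Nr1d1, the clock repressor REV-ERBα, at 40.9, 40.5 and 49 FPKM in the pair-fed livers and 15.5, 10.1 and 7.57 FPKM in the ethanol-fed livers (log2 difference -1.93 ± 0.23 (SE), adjusted p = 0.0018). Hnf4a, the receptor that specifies hepatocytes, was not called, at 114, 105 and 141 against 108, 106 and 145 FPKM (log2 difference -0.01). In the clock list 9 of 25 tested genes were lower (36%) and 2 higher (8%), beside 26% and 10% of all genes. The lower count was 4 and 4 with pair-fed liver 2 or 3 left out. Dbp, a clock output activator, measured 37.9, 39.4 and 44.1 against 8.74, 4.27 and 2.19 FPKM (log2 difference -2.92 ± 0.35 (SE), adjusted p = 0.002). Per2, a clock repressor, was higher, at 4.06, 4.31 and 2.86 against 10.9, 9.38 and 5.39 FPKM (log2 difference 0.98 ± 0.24 (SE), adjusted p = 0.02). Such genes cycle over the day, and the labels give no hour of collection. Per2 lost the call when pair-fed liver 3 was left out (adjusted p = 0.076).

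Markers of the pericentral zone of the lobule were mostly called lower, and those of the periportal zone were called in both directions. The difference between the zones was not tested. Pericentral hepatocytes, next to the central vein, carry Cyp2e1 and depend on Wnt signals, and 24 of 30 tested pericentral genes were called lower and none higher, with a median of -0.83 (17 lower under median-ratio scaling). The lower count was 12 and 13 with pair-fed liver 2 or 3 left out and 14 with ethanol-fed liver 3 left out. The list shares P450 and transporter genes with those above, and its Wnt targets Lgr5 and Rnf43 fell too. Lgr5 measured 4.00, 3.8 and 4.64 FPKM in the pair-fed livers and 1.73, 1.63 and 0.987 FPKM in the ethanol-fed livers (log2 difference -1.08 ± 0.14 (SE), adjusted p = 0.0026). Rnf43, which clears Wnt receptors, measured 6.85, 8.14 and 8.51 against 3.92, 2.31 and 2.1 FPKM (log2 difference -1.25 ± 0.19 (SE), adjusted p = 0.0036). Glul, glutamine synthetase, confined to the cells nearest the vein, was not called, at 571, 623 and 595 against 453, 551 and 361 FPKM. Of 28 tested periportal genes 9 were higher and 8 lower, beside 10% and 26% of all genes. Under median-ratio scaling 10 were higher and 3 lower, beside 17.9% and 16.6%. The higher count was 5 and 4 with pair-fed liver 1 or 2 left out and 5 with ethanol-fed liver 3 left out. Arg1, arginase, measured 620.4, 609 and 602 against 1219, 989 and 1352 FPKM (log2 difference 0.95 ± 0.13 (SE), adjusted p = 0.0028). Hsd17b6, a hydroxysteroid dehydrogenase, measured 223, 217 and 277 against 58.4, 51.3 and 45.6 FPKM (log2 difference -2.19 ± 0.14 (SE), adjusted p = 0.00042).

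**Figure D3:**
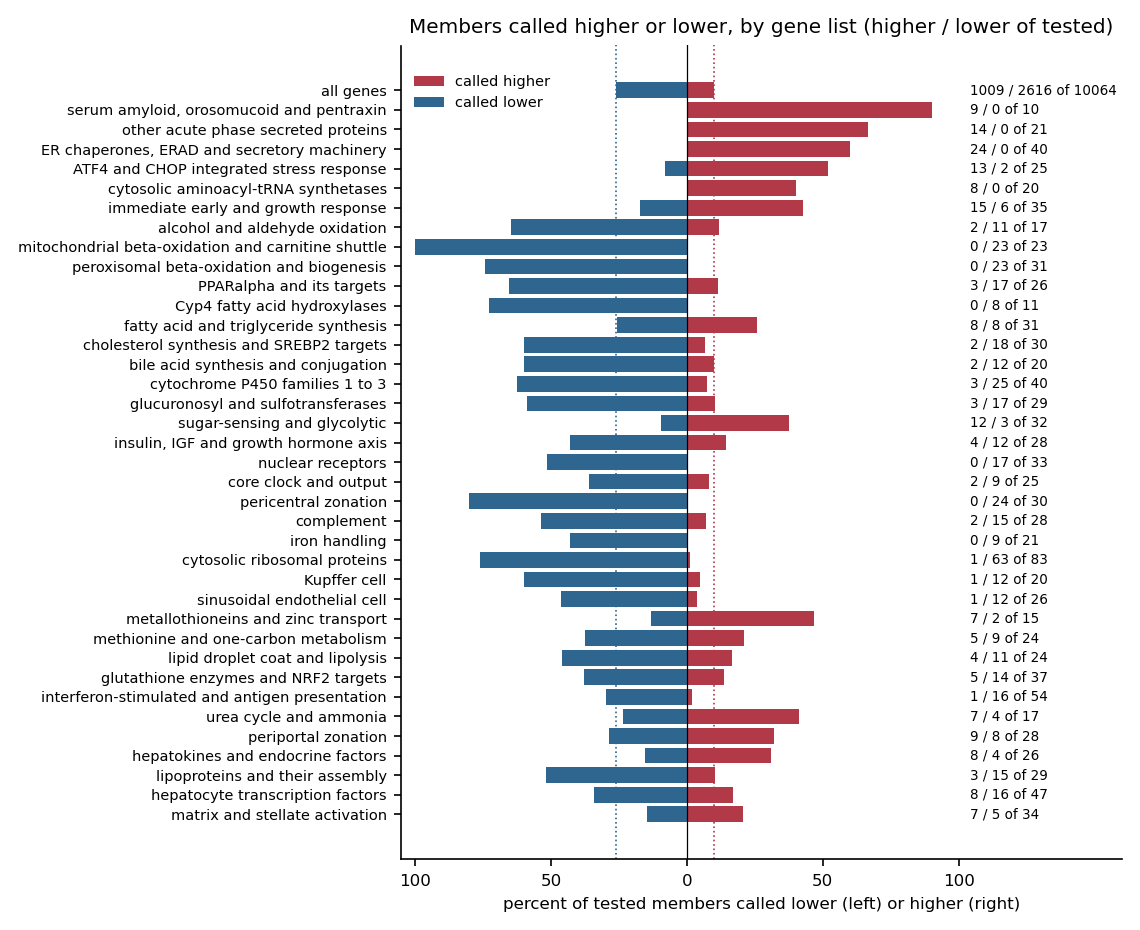
Percent of tested members called higher (right, red) or lower (left, blue) for 37 gene lists and for all genes, with the counts at the right and dotted lines at the background of 10% higher and 26% lower. All 23 mitochondrial beta-oxidation genes are lower, and 24 of 40 ER genes are higher.

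Complement proteins made in the liver were lower in part. Of 28 tested 15 were called lower and 2 higher (53.57% and 7.143%), beside 26% and 10% of all genes. Under median-ratio scaling 8 were lower and 2 higher. The lower count was 8, 7 and 6 with pair-fed liver 1, 2 or 3 left out. Mbl2, mannose-binding lectin, measured 413, 402 and 462 FPKM in the pair-fed livers and 202, 173 and 174 FPKM in the ethanol-fed livers (log2 difference -1.22 ± 0.11 (SE), adjusted p = 0.00084). C9, a pore component, measured 95.9, 86.8 and 124 against 61.7, 51.8 and 52.1 FPKM (log2 difference -0.86 ± 0.15 (SE), adjusted p = 0.0057). C3, the central component, was not called, at 1978, 1727 and 1934 against 1591, 2728 and 2197 FPKM. In iron handling 9 of 21 tested genes were lower (42.86%, beside 26% of all genes) and none higher. Under median-ratio scaling 7 were lower, and 6 to 11 were lower when 1 library was left out. Hamp, hepcidin, the hormone that closes the iron exporter, was not called (adjusted p = 0.1), at 1594, 1402 and 1523 against 134, 1100.3 and 754 FPKM, where ethanol-fed liver 1 lay far below the others. Atoh8, a target of the BMP signal that drives hepcidin, fell in all 3, at 6.67, 6.77 and 7.43 against 2.82, 1.97 and 2.78 FPKM (log2 difference -1.18 ± 0.13 (SE), adjusted p = 0.0013). Tfr2, an iron sensor, fell too, at 98.7, 97.3 and 94.3 against 64.7, 63.7 and 58.2 FPKM (log2 difference -0.63 ± 0.09 (SE), adjusted p = 0.0028).

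Among the genes with the largest fold differences outside these lists, several belong to transport, signalling and nucleotide metabolism. Slc34a2, a sodium-phosphate cotransporter, measured 0.300, 0.13 and 0.0579 FPKM in the pair-fed livers and 15.9, 5.51 and 7.08 FPKM in the ethanol-fed livers (log2 difference 3.05 ± 0.32 (SE), adjusted p = 0.0013), highest in ethanol-fed liver 1. B3galt1, a galactosyltransferase, was lowest in ethanol-fed liver 1 of the 3, at 2.82, 2.29 and 2.00 against 6.22, 27.5 and 45.4 FPKM (log2 difference 2.66 ± 0.60 (SE), adjusted p = 0.015). Nrg4, a growth factor that signals through ErbB4, reached like levels in all 3 livers, at 3.05, 3.26 and 2.18 against 17.9, 16.4 and 21.4 FPKM (log2 difference 2.36 ± 0.15 (SE), adjusted p = 0.00042). Serpina7, thyroxine-binding globulin, measured 46, 44.8 and 28.4 against 137, 269.6 and 349.6 FPKM (log2 difference 2.57 ± 0.35 (SE), adjusted p = 0.0026). Among the falls, Arrdc3, an arrestin-domain protein, measured 55.2, 45.5 and 57.2 against 16.6, 6.28 and 6.26 FPKM (log2 difference -2.45 ± 0.33 (SE), adjusted p = 0.0026). Coq8a, an atypical kinase of coenzyme Q synthesis, measured 29.1, 30.8 and 37.4 against 7.54, 4.08 and 4.82 FPKM (log2 difference -2.39 ± 0.20 (SE), adjusted p = 0.00071). Zfp395, a zinc finger protein, measured 8.98, 10.5 and 10.7 against 1.6, 1.44 and 1.71 FPKM (log2 difference -2.10 ± 0.11 (SE), adjusted p = 0.00017). The pyrimidine salvage genes Upp2, uridine phosphorylase, and Tk1, thymidine kinase, both fell. Upp2 measured 20.2, 35.2 and 36.9 against 6.88, 2.29 and 6.91 FPKM. Tk1 measured 7.14, 11.1 and 9.85 against 1.24, 0.683 and 1.03 FPKM. Dusp8, a MAP kinase phosphatase, was under 0.1 FPKM in each pair-fed liver and at 3.39, 4.61 and 1.00 FPKM in the ethanol-fed livers (log2 difference 1.83 ± 0.34 (SE), adjusted p = 0.0073). B3galt1 lost the call when pair-fed liver 2 was left out (adjusted p = 0.077). Slc34a2 and Dusp8 fell below the filter on low values in a fit with 1 library left out. Leaving out 1 library moved the log2 difference to 3.44 for B3galt1 without ethanol-fed liver 1.

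By absolute FPKM, other large changes fell on genes for secreted proteins and enzymes and on a mitochondrially encoded gene. Ahsg, fetuin-A, measured 5943, 5797 and 4963 FPKM in the pair-fed livers and 9693, 7286 and 7689 FPKM in the ethanol-fed livers (log2 difference 0.56 ± 0.15 (SE), adjusted p = 0.024). Serpina3k, a protease inhibitor of the same cluster as Serpina3n, measured 2209, 2528 and 2135 against 4364, 3079 and 6013 FPKM (log2 difference 0.92 ± 0.23 (SE), adjusted p = 0.021). The mitochondrially encoded ND1, a subunit of respiratory complex I, rose modestly, at 9549.5, 8362 and 8294 against 11909, 10536 and 14129.6 FPKM (log2 difference 0.47 ± 0.14 (SE), adjusted p = 0.036). It was the only 1 of 13 tested mitochondrially encoded genes that was called (7.692% higher, beside 10% of all genes), and their median was 0.13. Ces1c, a secreted carboxylesterase, fell, at 1819, 1899.6 and 2184 against 1227, 1059 and 1086 FPKM. Sord, sorbitol dehydrogenase, fell too, at 611, 682 and 682 against 308, 225 and 157 FPKM (log2 difference -1.57 ± 0.23 (SE), adjusted p = 0.0033), lowest in ethanol-fed liver 3. Rnase4, a secreted ribonuclease, measured 999, 789 and 1042 against 376, 468 and 438 FPKM (log2 difference -1.14 ± 0.14 (SE), adjusted p = 0.0022). Ahsg and Serpina3k lost the call when pair-fed liver 3 was left out (adjusted p = 0.093 and 0.077). ND1 lost the call when pair-fed liver 2 was left out (adjusted p = 0.13).

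Most cytosolic ribosomal proteins were lower by a small amount, and how many were called depends on the scaling. Of 83 tested 63 were called lower and 1 higher, with a median of -0.39, but only 10 were lower under median-ratio scaling, with a median of -0.21. The lower count was 31, 25 and 25 with pair-fed liver 1, 2 or 3 left out, and 75 without ethanol-fed liver 1. Rps19, for example, measured 89.9, 85.7 and 88.8 FPKM in the pair-fed livers and 58.8, 60.3 and 60.9 FPKM in the ethanol-fed livers (log2 difference -0.55 ± 0.08 (SE), adjusted p = 0.0036). The 8 genes that were low in ethanol-fed liver 1 alone were singled out after their values were seen. Eef1a1, the elongation factor that delivers tRNAs, measured 2961, 2999 and 2858 against 24, 1988 and 1752 FPKM. Rplp0, a stalk protein of the ribosome outside that list, measured 262, 247 and 237 against 2.25, 207 and 193 FPKM. Rpl13, Rpl26, Rps2, Rps3, Rps3a1 and Rps18 were at 2.23 to 25.2 FPKM in that liver, and none of the 8 was called. The other 77 tested ribosomal proteins of the list had a median ratio of 1.06 between ethanol-fed liver 1 and the mean of livers 2 and 3. Genes with near-identical processed copies in the genome, as many of these have, are uncertain in such counts, and the cause was not tested. Eif1a, an initiation factor, was higher, at 18.1, 13.7 and 13.4 against 30.5, 38.5 and 50.9 FPKM (log2 difference 1.33 ± 0.20 (SE), adjusted p = 0.0036).

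Markers of other liver cells were mostly lower or not called. Of 20 tested markers of Kupffer cells, the resident macrophages, 12 were called lower and 1 higher (60% and 5%), beside 26% and 10% of all genes. The counts were 10 and 1 under median-ratio scaling, and the lower count was 2 and 2 with pair-fed liver 2 or 3 left out. Lower calls over all genes also went down in such fits, from 2616 to as few as 1130, and 2 of 20 is near that share. The summed FPKM of the list was 549, 641 and 620.4 in the pair-fed livers and 449, 439.6 and 309 in the ethanol-fed livers. Adgre1, the F4/80 antigen, measured 7.96, 10.7 and 9.77 FPKM in the pair-fed livers and 4.94, 5.25 and 3.41 FPKM in the ethanol-fed livers (log2 difference -0.93 ± 0.16 (SE), adjusted p = 0.0065). Cd163, a haemoglobin scavenger receptor, was higher, at 4.88, 5.8 and 5.17 against 7.34, 8.36 and 7.02 FPKM (log2 difference 0.45 ± 0.11 (SE), adjusted p = 0.018). Of 26 tested markers of sinusoidal endothelial cells 12 were lower and 1 higher (46.15% and 3.846%), beside the same shares of all genes. Under median-ratio scaling 7 were lower and 3 higher. The lower count was 6, 4 and 4 with pair-fed liver 1, 2 or 3 left out and 7 with ethanol-fed liver 2 left out. Lyve1, the hyaluronan receptor, was the higher one, at 5.32, 4.87 and 3.85 against 16.2, 16.3 and 30.5 FPKM (log2 difference 1.90 ± 0.24 (SE), adjusted p = 0.0023). Dnase1l3, a secreted nuclease, was lower, at 18.9, 23.6 and 24 against 12.7, 8.88 and 6.66 FPKM (log2 difference -1.19 ± 0.21 (SE), adjusted p = 0.0065). Of 20 tested plasma carriers and hepatocyte markers 3 were called higher and 4 lower (15% and 20%), beside 10% and 26% of all genes. Ahsg and Serpina7, described above, were among those higher. Alb of the same list was not called, at 45946, 44098 and 42143 against 47905, 35145 and 45171 FPKM. Cd163 lost the call when pair-fed liver 3 was left out (adjusted p = 0.072).

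**Figure D4:**
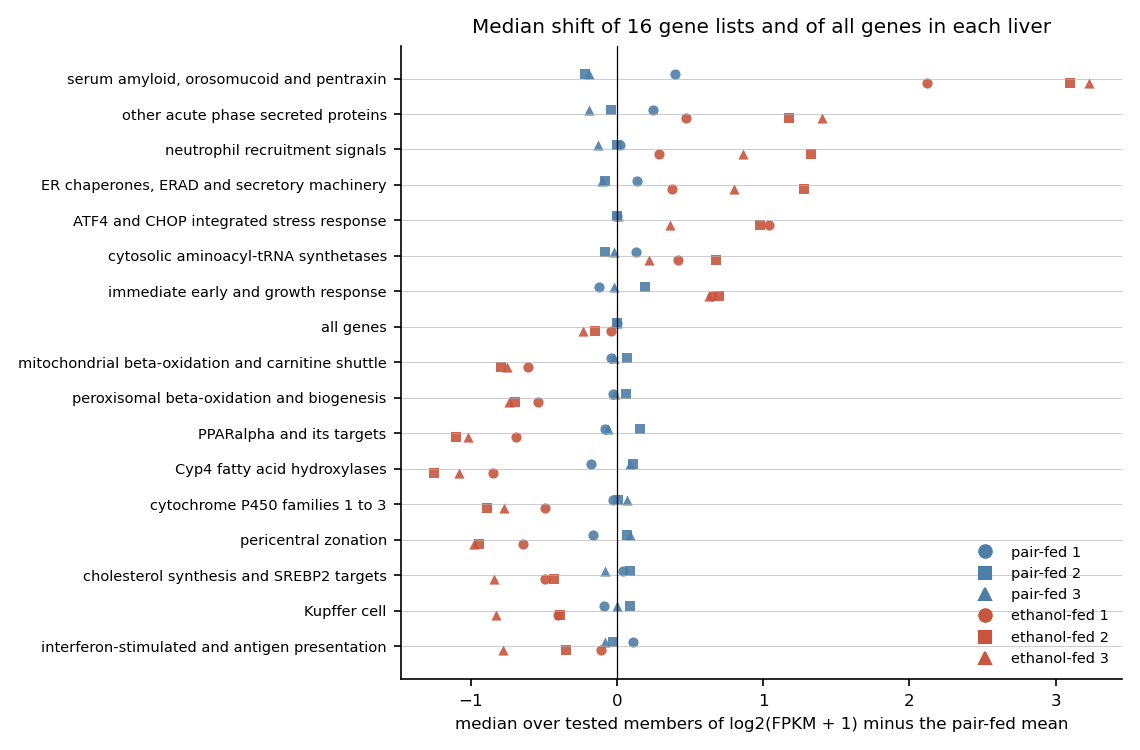
Each symbol is 1 liver, and its position is the median over the tested members of a list of log2(FPKM + 1) minus the pair-fed mean. For the acute phase lists ethanol-fed liver 1 stands nearest to the pair-fed livers, for the ATF4 and CHOP list ethanol-fed liver 3 does, and for mitochondrial beta-oxidation the 3 ethanol-fed livers lie together.

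As a share of all summed FPKM of a library, the serum amyloid and orosomucoid list held 0.366, 0.25 and 0.283% of the pair-fed libraries and 1.24, 5.09 and 4.41% of the ethanol-fed libraries, a mean of 0.299% ± 0.0596 (SD, n = 3) against 3.58% ± 2.06 (SD, n = 3). The other acute phase proteins held 4.89, 3.88 and 3.66% of the pair-fed libraries and 6.55, 12.2 and 12.1% of the ethanol-fed libraries. The alcohol and aldehyde list went from a mean of 1.93% to 0.825%, P450 families 1 to 3 from 3.04% to 1.64% and fatty acid uptake and binding, mainly Fabp1, from 2.4% to 0.966%. Methionine metabolism went in share from 0.824% to 1.53% and metallothioneins with zinc transport from 0.0561% to 0.636%. For each of these 7 lists the 2 groups did not overlap, and the exact permutation test, 2-sided, gave p = 0.1, the smallest that 3 against 3 libraries allow, so no difference in share could reach 0.05.

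**Figure D5:**
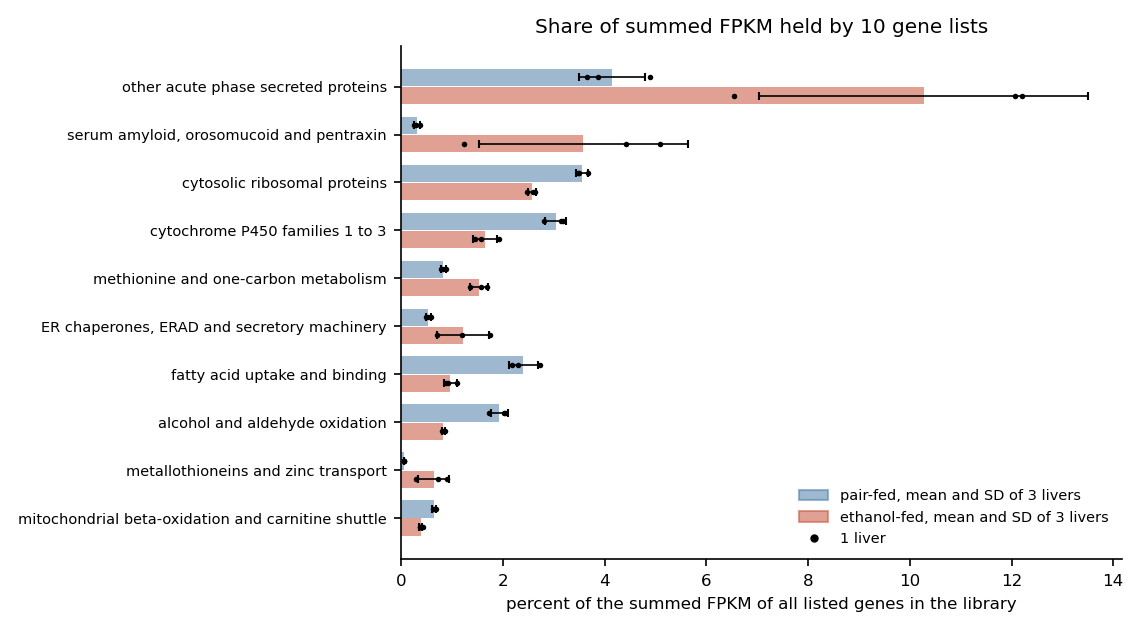
Bars give the mean share of the summed FPKM of a library for 10 gene lists, with the SD of 3 livers as error bars and a point for each liver, pair-fed in blue and ethanol-fed in red. The acute phase shares of the ethanol-fed livers spread widely, from 6.55% to 12.2% for the other acute phase proteins.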

How the data were processed

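Total RNA was extracted with TRIzol and sequenced from libraries of a VAHTS Universal V6 kit, per the labels' protocols. Per the submitters' processing notes, which give no versions or order, fastp, HISAT2, HTSeq and the build mm10 were used, and the strand setting of counting is not given in the sources used here. The authors deposited FPKM per library, and, as a normalized signal per the file headers, means of read counts over size factors. These signal means were used only to recover whole reads: 100% of gene and library values came out whole, within 0.05 of a read, giving the read totals per library. The deposited fold changes, p and q columns were not used. Each library was taken as 1 replicate, by its title and column name.

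The main test was limma 3.58.1 in R 4.3.3, with trend and robust settings, on log2(FPKM + 1) of genes that reached 1 FPKM in 3 or more of 6 libraries, with Benjamini-Hochberg adjustment, 2-sided, at 0.05. limma-voom on the recovered reads called 999 genes higher and 2621 lower. Other settings were a pseudocount of 0.1, no filter, median-ratio scaling, the replicate number as a block, all 9 libraries in 1 fit and each library left out. Scripts were tested on simulated data. Tables and figures were made with Python 3.11.15, numpy 2.4.6, pandas 2.3.3 and matplotlib 3.10.9. Genes were named by being among the 30 largest called fold differences per direction without overlap of the groups, at a group mean of at least 1 FPKM and without predicted genes, among the 15 largest called FPKM differences per direction, or by belonging to a gene list under description. Some genes under this rule are not reported here. The lists and their members were chosen with earlier results of these data known. Gene names are those of the deposited table, and 16602 of 16842 Entrez numbers matched RefSeq.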

Additional observations from a re-analysis of the deposited data

How the results depend on the processing

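No named gene that was called changed direction in any fit run, whereas Alb, Apob, C3, Canx, Cp, Hnf4a, Igf1, Onecut1, Slc30a1 and Socs3, none of them called, crossed 0 in 1 or more fits. With 1 library left out the genes called higher numbered 408 to 1098 and those called lower 1130 to 3645. The lists' higher members numbered 4 to 17 for other acute phase proteins, 4 to 35 for ER genes, 7 to 15 for ATF4 and CHOP, 0 to 12 for tRNA synthetases, 9 to 14 for immediate early genes, 2 to 9 for fatty acid synthesis, 4 to 11 for sugar sensing, 3 to 8 for zinc, 4 to 8 for periportal genes and 3 to 6 for hepatokines. The lower members numbered 7 to 12 for alcohol oxidation, 9 to 18 for cholesterol, 6 to 14 for bile acids, 15 to 28 for P450, 10 to 21 for glucuronosyl- and sulfotransferases, 7 to 13 for the insulin axis, 9 to 23 for nuclear receptors, 4 to 11 for the clock, 12 to 25 for pericentral genes, 6 to 15 for complement, 25 to 75 for ribosomal proteins, 2 to 13 for Kupffer cells, 4 to 14 for endothelial cells, 4 to 9 for methionine metabolism, 7 to 16 for glutathione, 5 to 32 for interferon genes, 10 to 20 for hepatocyte transcription factors and 4 to 16 for lipoproteins. Such fits have fewer samples, and only the fit without ethanol-fed liver 1 raised both counts over all genes. Median-ratio scaling turned the balance of calls to 1796 higher and 1663 lower genes, and that of methionine metabolism to 8 higher and 5 lower. It gave 14 higher tRNA synthetases and as lower members 6 of alcohol oxidation, 11 nuclear receptors, 8 of complement, 10 ribosomal proteins, 7 endothelial markers, 9 of glutathione and 5 lipoprotein genes. That scaling also called 5 named genes that the main fit did not, among them Aars, Bcl3, Egr1 and Plin2. A pseudocount of 0.1 gave 660 genes lower by 2-fold or more and limma-voom 708. Without the filter on low values 5 tRNA synthetases and 5 hepatokines were higher and 10 interferon genes lower. The fit of all 9 libraries left 5 lower methionine genes. Deviations of same-numbered libraries of the 2 groups from their group means correlated at -0.192, -0.117 and 0.112, and those of differently numbered ones at -0.216 to 0.309. With 3 libraries per group such correlations cannot decide whether the numbers pair anything. A replicate block gave 794 higher and 1984 lower genes, with 37 lower ribosomal proteins, 7 endothelial markers, 9 glutathione genes and 9 lipoprotein genes. Without the 10 highest genes in the sum, shares differed by -1.49 percentage points for alcohol oxidation, -1.87 for P450, -0.264 for fatty acid binding, whose Fabp1 is 1 of them, -0.354 for mitochondrial beta-oxidation, 1.01 for methionine metabolism and -1.3 for ribosomal proteins. Apart from the scaling and the smaller sets of samples or genes, the cause was not tested. Depth limits the low genes, of which 6778 listed ones did not pass the filter and were not tested.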

Other observations

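Of 54 tested interferon-stimulated and antigen presentation genes 16 were called lower and 1 higher, beside 26% and 10% of all genes, so that the lower share was near the background, and 32 were lower without ethanol-fed liver 1. The count was 5, 6 and 6 with pair-fed liver 1, 2 or 3 left out and 32 and 10 with ethanol-fed liver 1 or 2 left out, and 12 under median-ratio scaling. Class II genes, which antigen-presenting cells express, were among them. Cd74, the invariant chain, measured 71.9, 68.8 and 70.01 FPKM in the pair-fed livers and 42.7, 54.3 and 33.9 FPKM in the ethanol-fed livers (log2 difference -0.70 ± 0.16 (SE), adjusted p = 0.016). H2-Ab1 measured 27.2, 24.2 and 23.8 against 13.5, 19.97 and 11.7 FPKM. The class I heavy chain H2-K1 was not called, at 478, 449 and 512 against 463, 416 and 352 FPKM. Isg15 and Ifit3, induced by type I interferon, were not called either, with Ifit3 at 8.46, 7.71 and 5.61 against 9.31, 4.02 and 1.65 FPKM and lowest in ethanol-fed liver 3. Irf7, a regulator of that response, fell from 23.7, 22.3 and 20.6 to 16.9, 11.3 and 5.91 FPKM (log2 difference -1.01 ± 0.31 (SE), adjusted p = 0.039). Cd74 lost the call when pair-fed liver 3 was left out (adjusted p = 0.059). H2-Ab1 lost the call when pair-fed liver 1 was left out (adjusted p = 0.07). Irf7 lost the call when pair-fed liver 2 was left out (adjusted p = 0.11).

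Of 47 tested hepatocyte transcription factors 8 were called higher and 16 lower, beside 10% and 26% of all genes, and 13 and 13 under median-ratio scaling. The lower count was 10 with pair-fed liver 3 left out. Cebpa, which holds hepatocytes in the differentiated state, fell from 78.3, 76.1 and 102 to 54.3, 42.1 and 37.8 FPKM (log2 difference -0.92 ± 0.17 (SE), adjusted p = 0.0068). Of the forkhead factors Foxa1 and Foxa2 fell and Foxa3 rose, Foxa3 at 15.6, 12.7 and 15.1 against 49.7, 34.1 and 27.4 FPKM (log2 difference 1.26 ± 0.21 (SE), adjusted p = 0.0051). Onecut2 fell, at 16.7, 16.9 and 18.3 against 8.09, 9.22 and 8.11 FPKM (log2 difference -0.95 ± 0.10 (SE), adjusted p = 0.0012). Onecut1 was not called, at 5.36, 7.94 and 5.51 against 4.65, 8.47 and 5.42 FPKM. Of 34 tested genes for matrix and stellate cell activation 7 were called higher and 5 lower, with a median of -0.09. These shares were 20.59% and 14.71%, beside 10% and 26% of all genes. Col4a1, a basement membrane collagen, was called higher, at 5.46, 5.76 and 5.12 against 9.63, 7.7 and 9.7 FPKM. Nidogen, Nid1, was called higher too, at 5.87, 5.73 and 5.27 against 10.1, 9.83 and 11.9 FPKM (log2 difference 0.81 ± 0.11 (SE), adjusted p = 0.0024). The fibrillar collagens Col1a1 and Col3a1 were not called. Thbd, thrombomodulin, rose from 1.31, 1.27 and 1.34 to 6.3, 5.64 and 17.8 FPKM (log2 difference 2.07 ± 0.36 (SE), adjusted p = 0.0061), highest in ethanol-fed liver 3. Alad, an early enzyme of heme synthesis, fell, at 25.3, 26.3 and 25.3 against 11.6, 12.3 and 10.7 FPKM (log2 difference -1.09 ± 0.09 (SE), adjusted p = 0.00071). The first enzyme, Alas1, was not called, at 96.8, 134 and 80.9 against 43.3, 112 and 51 FPKM.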
